A study of Mus musculus with 24 samples.

Results

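The libraries described here are the 10 enriched hippocampal libraries that passed quality control, divided by how much transthyretin (Ttr) mRNA each one held. They were chosen by the Ttr level itself: a library with at least 300 CPM (Ttr counts per 1000000 counts on genes) was called Ttr-rich and one below that Ttr-poor. The rule placed 7 libraries in the first class and 3 in the second, out of 24 in the whole series. Because the classes were chosen by a measured RNA of the same libraries, every difference between them is given as a description and with no test. Tests were kept for the 12 standard-housed libraries, which the rule did not use, and for genotype, which the labels give.

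All libraries were poly-A RNA from whole hippocampus of mice aged 12 weeks by the labels, on a C57-Bl/6J background, male and experimentally naive by the study's methods. WT mice were compared with MSK1 KD mice, in which both copies of the endogenous MSK1 gene (Rps6ka5) carry a point mutation that inactivates the N-terminal kinase domain in every cell, so that the level of its mRNA is no check of the labels. The 2 genotypes were bred as separate homozygous lines, and mice had been raised in standard housing (SH) or, from before birth, in an enriched environment (EE) of large cages with running wheels and toys. WT EE, MSK1 KD EE, WT SH and MSK1 KD SH held 6 libraries each. The labels do not say that each library came from 1 animal, so the spread between libraries may in part be technical.

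The choroid plexus is a folded epithelium in the brain ventricles that makes cerebrospinal fluid. Its epithelial cells pump ions and water from blood into the ventricle, and they make carrier proteins, of which transthyretin, a carrier of thyroid hormone and of the retinol-binding protein, is the best known. Neurons and glia of the hippocampus make little of it. The choroid plexus of the lateral ventricle lies against the hippocampus, next to the ciliated ependyma that lines the ventricle. In a bulk sample, fewer cells of a type and less RNA per cell cannot be told apart, and the term Ttr-rich is used here for the measured RNA only.

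Ttr stood at 905 CPM in library 7, 1988 in 8, 2722 in 32A, 3796 in 17, 4650 in 33A, 4816 in 16 and 5090 in 36A. The Ttr-poor libraries held 168 CPM (9), 41.4 CPM (31B) and 33.4 CPM (35A). The members nearest to the threshold were library 7 above it and library 9 below it, where the exact 95% binomial (Clopper-Pearson) interval of the Ttr level was 159 to 177 CPM and covers counting error only. The Ttr-rich class held 4 MSK1 KD EE libraries (7, 8, 32A, 36A) and 3 WT EE libraries (16, 17, 33A), and the Ttr-poor class 1 MSK1 KD EE library (9) and 2 WT EE libraries (31B, 35A), so that both genotypes were present in each class. In standard housing 9 libraries lay between 17 and 135 CPM and 3 lay above the threshold, at 685 (11, WT), 1671 (12, WT) and 2646 CPM (2, MSK1 KD). Libraries 12 and 2 thus lay within the range of the Ttr-rich class and 11 between the classes, while the other 9 lay below the highest Ttr-poor library.

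The Ttr-rich libraries held between 13003876 and 45373840 gene counts and the Ttr-poor libraries 8911999 (9), 30451962 (31B) and 56752074 (35A), so that a floor of 3 counts was 0.337 CPM in the shallowest library and 0.0529 CPM in the deepest. The share of reads that fell on no annotated gene was 10.1% to 11.3% in the Ttr-rich libraries and 11.8%, 11.8% and 14.2% in 9, 31B and 35A, and did not overlap between the classes. The mitochondrial share overlapped, at 3.83% to 5.10% and 3.87% to 4.37%. Libraries 33B and 34B, which failed the study's quality control, were left out: 34B held 16442 gene counts and none on Ttr, where the floor of 3 counts is 182 CPM, and 33B held 901 CPM of Ttr with 35.6% of reads on no gene. Libraries 2, 9, 12, 31B and 35A stayed in, although the published comparisons left them out for low correlation within their group, so the 3 Ttr-poor libraries are all among those left out there and the 7 Ttr-rich libraries are not. The part of library quality in the differences below was not tested.

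**Figure D1:**
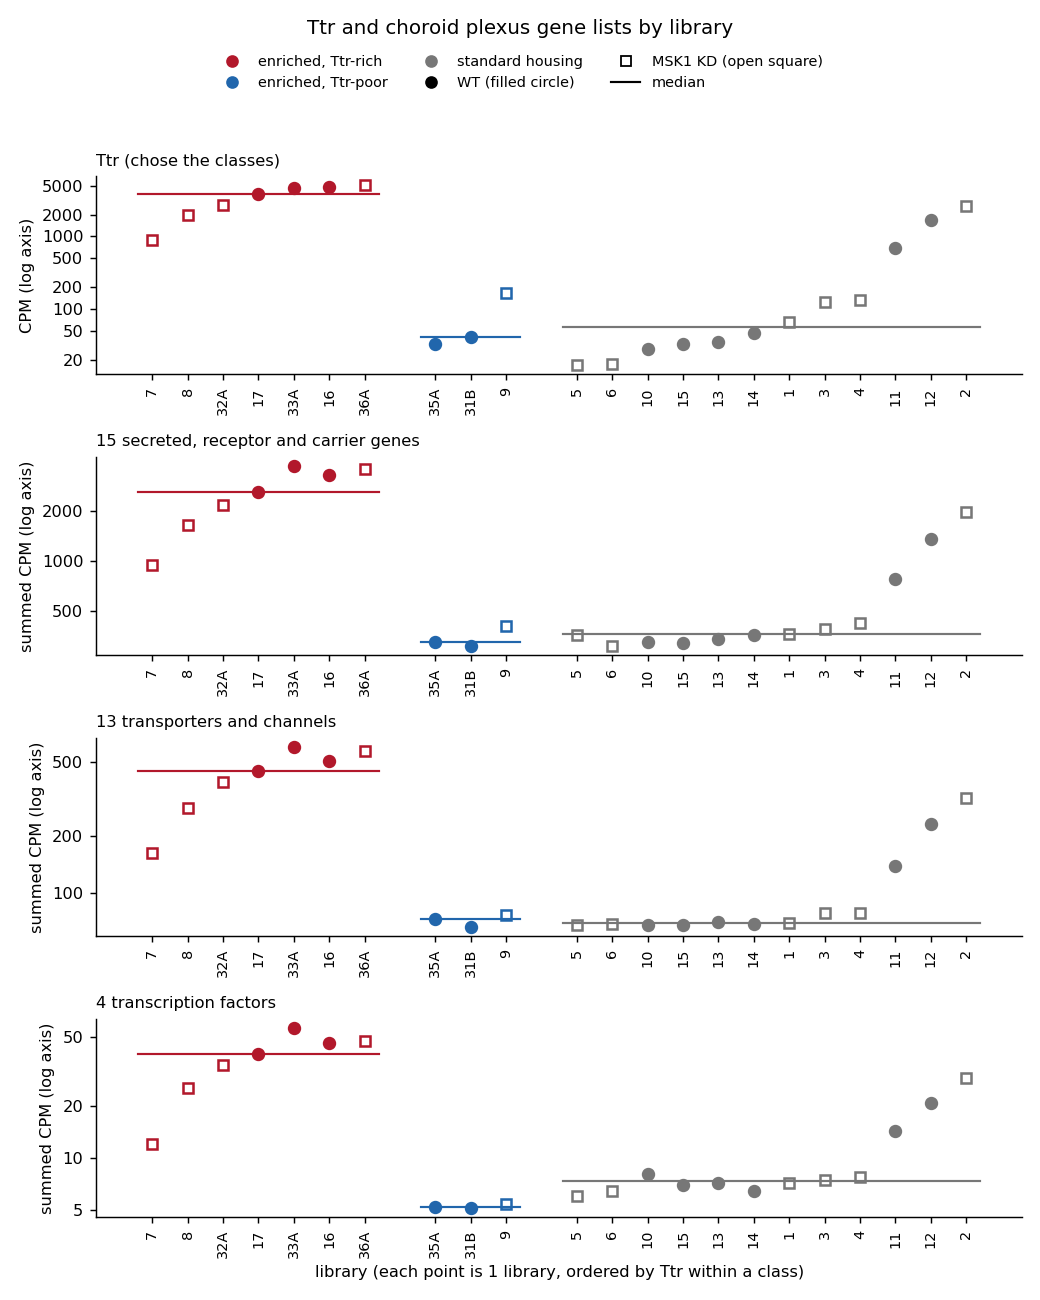
Ttr (CPM) and the summed CPM of 3 choroid plexus gene lists in each library, on log axes, with the 7 Ttr-rich, 3 Ttr-poor and 12 standard-housed libraries ordered by Ttr within their class. Filled circles are WT, open squares are MSK1 KD and horizontal lines are medians. Library 7 is the lowest Ttr-rich library in every panel, and libraries 11, 12 and 2 stand above the other 9 standard-housed libraries.

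The label of the division was checked on 42 further choroid plexus genes in 4 lists (secreted proteins and receptors, transporters, epithelial structure, transcription factors), none of which the rule read. All 42 passed the filter on low counts and all 42 had a higher fitted level in the Ttr-rich class, against 8977 of 18358 genes measured. Some passed the filter through the Ttr-rich libraries alone, such as Lmx1a and Cdh3, with at most 0.198 and 0.144 CPM in a Ttr-poor library. For such genes the direction was set by the filter. For 39 of the 42, every Ttr-rich library lay above every Ttr-poor one with a fitted difference of at least 1.3-fold (log2 0.38), here called separated, against 481 of 18358 genes measured, or 2.62%. The median log2 difference of the 42 genes was 3.17, against -0.00 for all genes measured. Since these genes were measured in the libraries that the rule divided, this describes the classes and is no test of them. As for Ttr, library 7 was the lowest Ttr-rich library for 40 of the 42 genes. The rest of the order was shared less: 36A, the highest in Ttr, was the highest Ttr-rich library for 11 of the 42. Library 9 was the highest Ttr-poor library for 24. The median ratio of the highest to the lowest Ttr-rich library was 3.84 over the 42.

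All 15 genes of the secreted and receptor list were separated (median log2 difference 3.05). Their summed level was 940 to 3731 CPM in the Ttr-rich libraries (median 2609), against 406, 309 and 325 CPM in 9, 31B and 35A. Here and below, CPM other than those of Ttr above are scaled by TMM. Enpp2, the secreted phosphodiesterase autotaxin, had 622, 1141, 1434, 1772, 2627, 2306 and 2521 CPM in 7, 8, 32A, 17, 33A, 16 and 36A, and 249, 190 and 169 CPM in 9, 31B and 35A (log2 difference 3.16). Kl, the FGF23 co-receptor klotho, had 54.0 to 234 CPM (median 147) against 23.2, 22 and 18.4 CPM. Folr1, a folate receptor that carries folate into cerebrospinal fluid, had 6.18 to 40.8 CPM (median 35.1) against 3.67, 1.55 and 1.03 CPM. Igf2, a growth factor that meningeal cells also make, had 82.4 to 226 CPM (median 203) against 38.3, 28.9 and 60.5 CPM. Mfrp, a frizzled-related protein of the membrane, had 7.34 to 54.0 CPM (median 35.3) against 2.45, 0.892 and 1.3 CPM, the largest difference of the list (log2 4.92). F5, coagulation factor V, had 16.8 to 102 CPM (median 69.6) against 6.45, 2.15 and 1.57 CPM (log2 4.85). For these 6 genes the order of the 3 Ttr-poor libraries differed: library 9 was the highest for all but Igf2, for which 35A was. The smallest difference of the list was that of Cab39l, a scaffold protein of kinases that control ion cotransporters, at log2 1.31.

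All 13 transport genes were separated too (median log2 difference 3.38). Their sum was 163 to 603 CPM (median 446) against 75.7, 65.3 and 72.5 CPM in 9, 31B and 35A. Tmem72, a membrane protein of little known function, had the largest difference of the list, with 8.12 CPM in library 7 and 29.7 to 78.2 CPM in the other Ttr-rich libraries, against 1.67, 0.231 and 0.487 CPM (log2 6.68). Slc4a5, a sodium bicarbonate cotransporter, had 8.73 to 48.8 CPM (median 37.5) against 1.0, 0.198 and 0.451 CPM (log2 6.49). Kcne2, the accessory subunit of potassium channels, had 7.96 to 31 CPM (median 20.3) against 0.667, 0.297 and 0.289 CPM (log2 6.16). Aqp1, the water channel of the ventricular face of these cells, had 6.96 to 39.2 CPM (median 27.8) against 1.0, 0.364 and 0.595 CPM (log2 5.74). Within the Ttr-poor class, library 9 was the highest for each of these 4 genes. The anion exchanger Slc4a2 and the copper transporter Slc31a1, which many cell types express, differed least from the Ttr-poor libraries among those named, with 47.3 to 90.6 CPM against 27.7, 30.4 and 28.7 CPM (log2 1.42) and with 27.3 to 54.6 CPM against 19.2, 19.4 and 17.9 CPM (log2 1.24).

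In the mouse genome (GRCm38, GENCODE vM21), Tmem72 lies at chr6:116679063-116716913 on the minus strand, Slc4a5 at chr6:83219828-83304945, Kcne2 at chr16:92292389-92298129 and Aqp1 at chr6:55336432-55348555, all 3 on the plus strand. The promoters of the choroid genes were searched on both strands for TAATCC or its reverse complement GGATTA, the core that homeodomain factors of the Otx family bind. The search covered the 200 bases that lie 250 to 51 bases before each RefSeq start (GRCm38.p6). Of the 42 genes, 34 were in the promoter table, and 3 of their 48 windows held the letters (6.25%), against 5.22% of all 32851 windows. The 3 were windows of Abca4, Mfrp and Otx2. The share was close to that of all promoters, and a match describes the letters only. As examples, the windows of Mfrp (chr9:44101520-44101719, plus strand) and Abca4 (chr3:122044210-122044409, plus strand), which hold the letters, and the first of 2 windows of Kcne2 (chr16:92292139-92292338, plus strand), which does not, are given 5′ to 3′ with matches in capitals.
Mfrp: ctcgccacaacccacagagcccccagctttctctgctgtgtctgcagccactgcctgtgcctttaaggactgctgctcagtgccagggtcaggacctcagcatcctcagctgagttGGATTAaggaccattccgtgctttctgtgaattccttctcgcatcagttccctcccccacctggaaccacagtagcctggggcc
Abca4: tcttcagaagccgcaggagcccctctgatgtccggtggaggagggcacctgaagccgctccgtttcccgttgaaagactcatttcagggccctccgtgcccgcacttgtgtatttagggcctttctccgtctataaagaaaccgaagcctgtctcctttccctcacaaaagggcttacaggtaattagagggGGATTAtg
Kcne2: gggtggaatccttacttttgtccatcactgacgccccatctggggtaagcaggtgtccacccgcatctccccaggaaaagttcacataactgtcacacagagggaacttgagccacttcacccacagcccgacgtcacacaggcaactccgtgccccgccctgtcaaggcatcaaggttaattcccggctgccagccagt

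Of 10 genes of epithelial keratins, junctions and adhesion, 8 were separated (median log2 difference 3.05). Cldn2, a claudin of leaky epithelia, had 4.33 to 35.6 CPM (median 21.2) against 1.33, 0.297 and 0.776 CPM in 9, 31B and 35A (log2 5.17). The keratins Krt8 and Krt18 had 2.63 to 7.01 and 3.86 to 13.5 CPM, against at most 0.667 and 0.890 CPM in a Ttr-poor library. Cdh3, a cadherin, rested on 11 counts in the 3 Ttr-poor libraries together and had 1.70 to 5.86 CPM in the Ttr-rich ones. Ocln, the tight junction protein occludin that brain endothelium also makes, was separated by the smallest difference of the list (log2 0.51). Cldn3 and Col17a1 were not separated: library 7 held 0.386 CPM of Cldn3, below the 0.562 CPM of 31B, and 0.773 CPM of Col17a1, below the 0.890 CPM of 9.

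The 4 transcription factors of the list summed to 12.1 to 56.8 CPM (median 39.9) in the Ttr-rich libraries and to 5.45, 5.12 and 5.21 CPM in 9, 31B and 35A. Otx2, a homeodomain factor that the choroid plexus makes and exports, had 3.01, 8.79, 13.6, 16.6, 23.9, 19.3 and 22.9 CPM in 7, 8, 32A, 17, 33A, 16 and 36A, and 1.89, 0.463 and 0.487 CPM in 9, 31B and 35A (log2 4.75). Lmx1a (log2 4.20) and Msx1 (log2 2.52), factors of the embryonic roof plate from which this epithelium arises, were separated as well, and Msx2 was not. For 26 of the 42 choroid genes, all 3 Ttr-poor libraries lay within the range of the 12 standard-housed libraries.

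In all, 481 of 18358 genes (2.62%) were separated with the higher level in the Ttr-rich class and 110 (0.599%) with the lower. The median log2 difference of the 481 was 1.06, and 258 of them differed at least 2-fold, 121 at least 4-fold and 73 at least 8-fold. The 42 choroid genes supplied 38 of the 258, 30 of the 121 and 22 of the 73, so that their share went from 14.7% to 24.8% and 30.1%, the choroid lists having been chosen with such results known. The 10 largest differences at a mean of at least 1 CPM were those of Wdr72, Defb11, Tmem72, Slc4a5, Kcne2, Aqp1, Tmprss11a, Cdh3, Clic6 and Cldn2. Wdr72 and Defb11 had 1 count each in the 3 Ttr-poor libraries together, so that no fold is given, and 0.618 to 4.57 CPM and 0.309 to 2.95 CPM in the Ttr-rich ones, through which alone they passed the filter on low counts. Tmprss11a, a serine protease, had 4 counts in the Ttr-poor class and 0.773 to 2.65 CPM in the Ttr-rich class, through which alone it passed too. Clic6, a chloride channel protein, had 17.7 to 120 CPM (log2 5.19) against 7.56, 1.49 and 1.35 CPM.

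The counts of separated genes depended on which libraries were present, as fewer libraries overlap less often. The 481 became 769 without library 9, 734 without 31B, 790 without 35A and 723 without 7, and the 110 became 293, 346 and 268 without 9, 31B and 35A and 169 without 36A. The choroid count went from 39 to between 39 and 41 of 42 with any 1 library left out. Leaving out a library could hardly lower this count, and 42 was its ceiling, so its narrow range shows little. Among libraries whose code carries a letter, which the labels do not explain, the median log2 difference of the 42 genes was 3.71 (3 against 2 libraries). Among those without a letter it was 1.83 (4 against 1). With genotype as a covariate, the first value rested on 33A against 31B and 35A, since the lettered MSK1 KD libraries were all Ttr-rich. The second rested on 7 and 8 against 9, since the unlettered WT libraries were all Ttr-rich. Letter and genotype thus cannot be told apart in these fits. The fitted level of all 42 genes was higher in the Ttr-rich class in both.

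**Figure D2:**
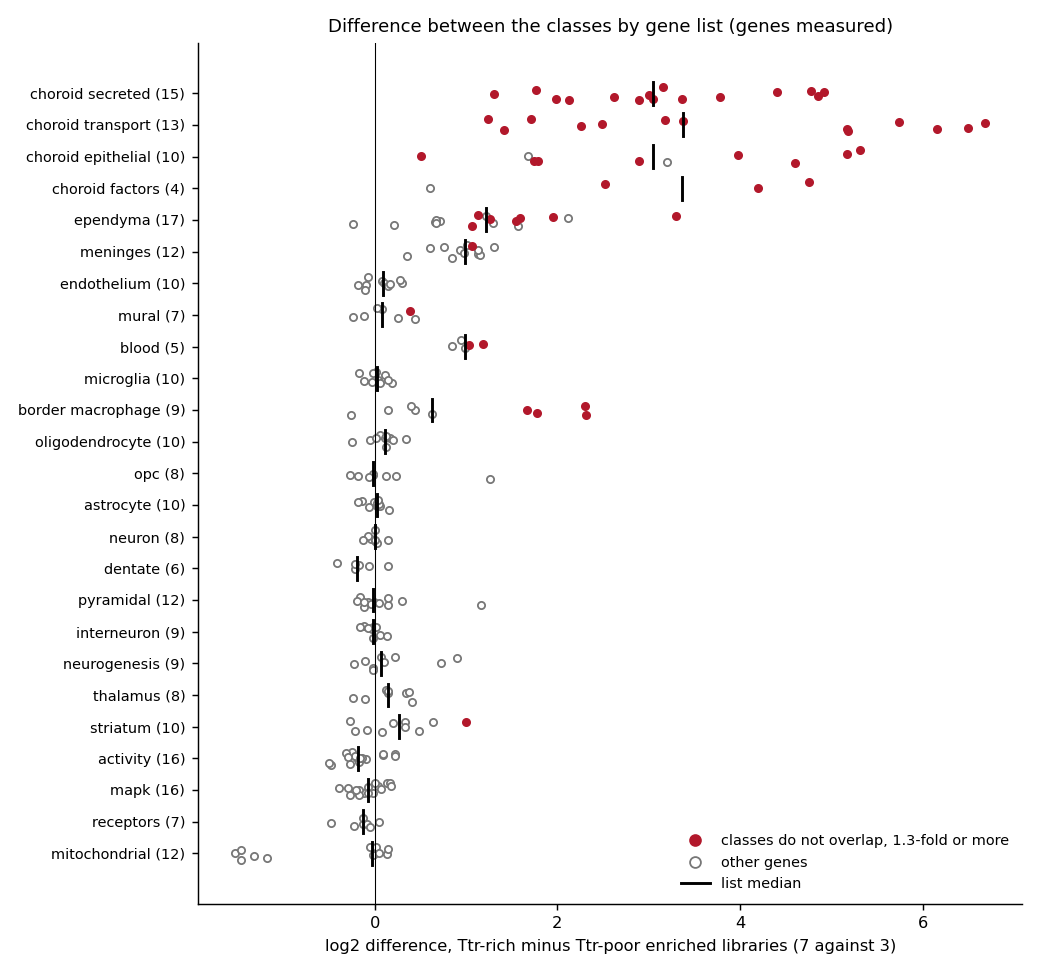
Log2 difference between the 7 Ttr-rich and 3 Ttr-poor enriched libraries for each gene of 25 lists, with the number of genes measured in brackets. Filled points are genes whose classes do not overlap and differ at least 1.3-fold, and bars are list medians. The 4 choroid lists have medians of 3.05 to 3.38, the ependymal, meningeal, blood and border macrophage lists of 0.62 to 1.22, and the neuronal lists lie near 0.

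Ependymal genes were the next in size. Of 18 ependymal genes 17 passed the filter, 16 were higher in the Ttr-rich class (median log2 difference 1.22) and 7 were separated. Of all 18358 genes measured, 8977 were higher in that class and 481 were separated on that side. Foxj1, the master factor of motile cilia, had 16.1, 15.2, 18.9, 19.3, 24.3, 22 and 22.8 CPM in 7, 8, 32A, 17, 33A, 16 and 36A, and 9.90, 9.29 and 10.6 CPM in 9, 31B and 35A (log2 1.06). Drc7, a part of the ciliary dynein regulatory complex, differed most (10.3 to 36.5 against 4.67, 3.17 and 2.47 CPM, log2 3.30). Rsph1, of the radial spokes, had 4.79 to 11.3 CPM (log2 1.59), whereas the dynein Dnah5 had 7.69 to 12.6 CPM against 11.5, 11.4 and 12.7 CPM (log2 -0.23). The summed ependymal level was 75.4 to 159 CPM in the Ttr-rich class, 64.7, 57.4 and 53.4 CPM in 9, 31B and 35A, and 68.4 to 125 CPM in standard housing. All 3 Ttr-poor libraries thus lay below all 12 standard-housed ones for this sum, and likewise for the 4 transcription factors (5.12 to 5.45 against 6.02 to 29.1 CPM). For the secreted choroid genes they did not, with 309 to 406 against 306 to 1973 CPM.

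Meningeal genes had another order of libraries. All 12 were higher in the Ttr-rich class (median log2 difference 0.99), against 8977 of 18358 genes measured, but only the proteoglycan Lum was separated. Their sum was 144, 103, 172, 200, 133, 202 and 143 CPM in 7, 8, 32A, 17, 33A, 16 and 36A, and 84.9, 79.2 and 127 CPM in 9, 31B and 35A. Library 35A was thus above 8 in the meningeal sum while it held the least Ttr, and 33A, among the highest in choroid genes, was below 7. Collagens Col1a1 and Col1a2 had 9.31 to 20.3 and 13.1 to 28.0 CPM against at most 10.5 and 16.3 CPM, both maxima in 35A.

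Of 9 border macrophage and antigen presentation genes, 4 were separated, against 481 of 18358 genes measured (2.62%), and all 4 were of the MHC class II pathway. Cd74, the invariant chain, had 3.49 to 7.41 CPM (median 4.11) against 1.33, 0.958 and 2.13 CPM in 9, 31B and 35A (log2 1.78). H2-Aa, H2-Ab1 and H2-Eb1 had log2 differences of 2.30, 1.67 and 2.31, at levels of at most 3.71 CPM. Library 9 held 3, 8 and 2 counts of them, at or near the floor of 3 counts. The gap for H2-Ab1 was narrow, with 0.927 CPM in library 7 against 0.890 CPM in 9. The macrophage markers Mrc1, Cd163, Lyve1, Pf4 and F13a1 overlapped between the classes, with log2 differences of -0.26 to 0.62. Of 5 blood genes the beta-globins Hbb-bs and Hbb-bt were separated (log2 1.03 and 1.18), and the blood sum was 55.2 to 128 CPM against 51.2, 35.9 and 29.4 CPM. Among 7 measured mural genes the separated one was Vtn (log2 0.38), and among 10 striatal genes it was Ppp1r1b, the phosphoprotein DARPP-32 (42.5 to 71.4 against 27.3 to 31.1 CPM, log2 1.0), while Drd1 and Drd2 overlapped. With 2.62% of all genes separated on this side, 1 gene in a list of 7 or 10 says little about the list. The part of these other cell types in the differences between the classes was not tested.

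**Figure D3:**
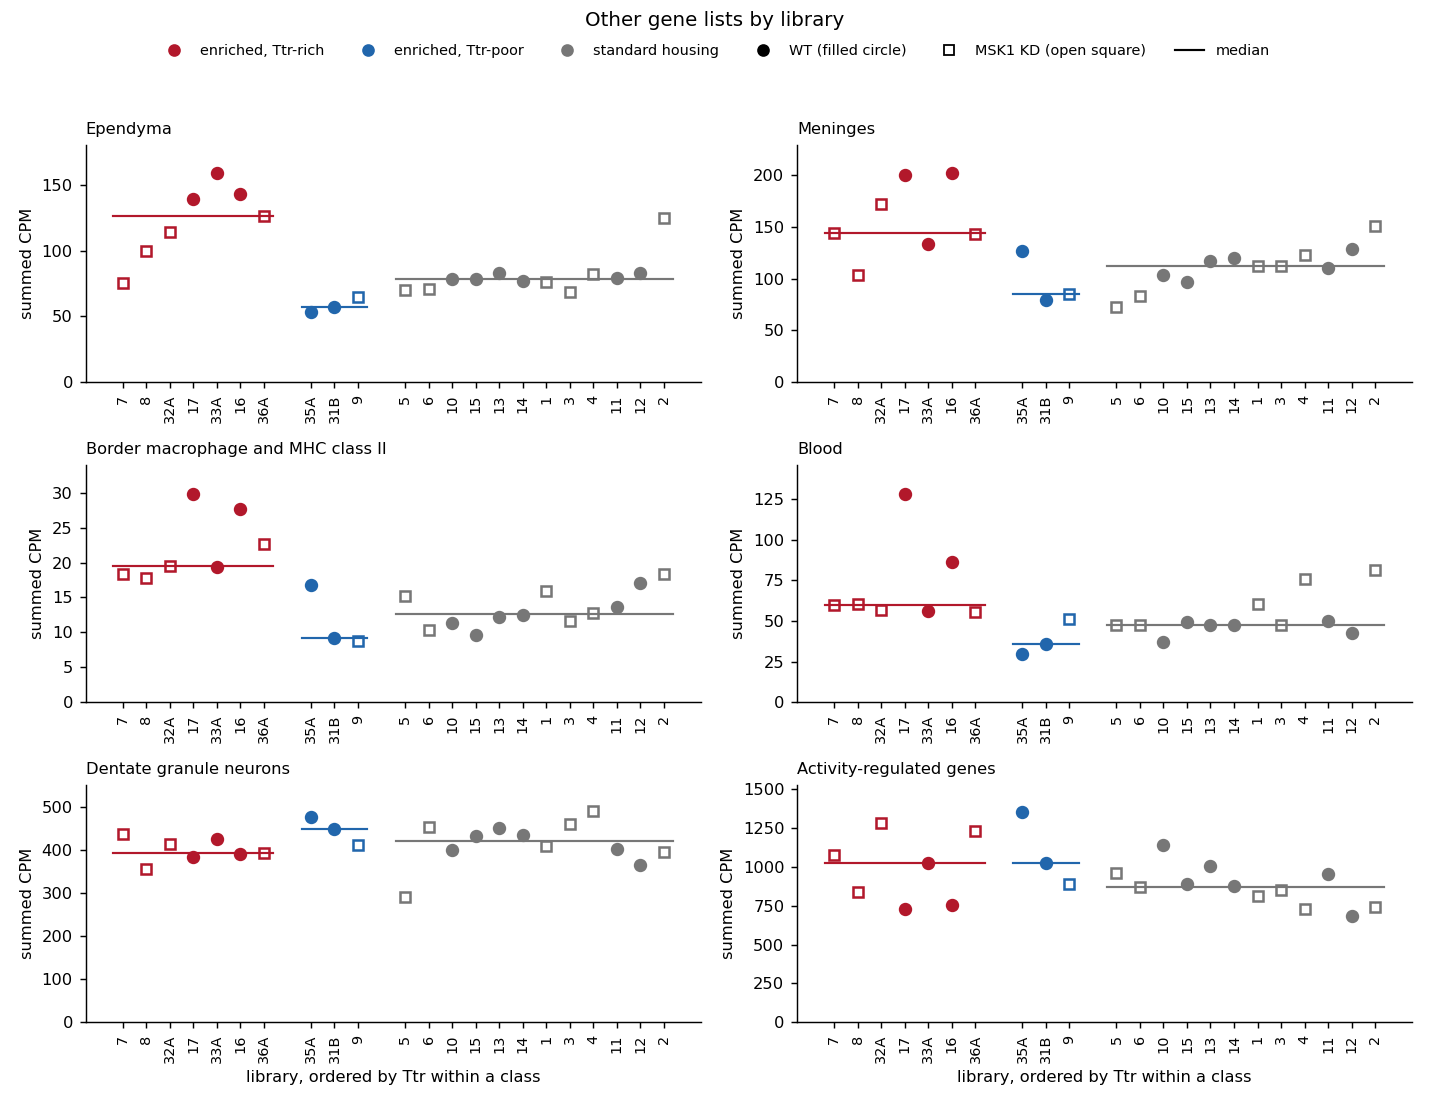
Summed CPM of 6 other gene lists in each library, ordered by Ttr within class, with filled circles for WT, open squares for MSK1 KD and lines for medians. The ependymal sums of the 3 Ttr-poor libraries (53.4 to 64.7 CPM) lie below those of all 12 standard-housed libraries, the meningeal sums follow another order, and the dentate and activity-regulated sums overlap between the classes.

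The classes overlapped in the lists of hippocampal cells. None of the genes measured for endothelium (10), microglia (10), oligodendrocytes (10), oligodendrocyte precursors (8), astrocytes (10), general neurons (8), dentate granule cells (6), pyramidal cells (12), interneurons (9), neurogenesis (9), thalamus (8), neurotransmitter receptors (7) or the mitochondrial genome (12) was separated, against 2.62% and 0.599% of all genes. The list medians were between -0.19 (dentate) and 0.14 (thalamus). None of 16 activity-regulated genes and none of 16 genes of the BDNF, MAPK and MSK1 pathway was separated either. In the activity list 12 of 16 genes had the lower fitted level in the Ttr-rich class (median -0.18), against 9381 of 18358 genes measured. Arc had 105 to 295 CPM (median 178) against 180 to 210 CPM. Egr1, an immediate early factor, had 111 to 257 CPM (median 170) against 154 to 259 CPM. With the genotypes pooled, the Ttr-poor libraries thus lay inside or near the range of the Ttr-rich ones, but the order differed by genotype. Among WT libraries, 31B and 35A lay above 16, 17 and 33A for both genes. Among MSK1 KD libraries, 9 lay below 7, 8, 32A and 36A for Egr1 and inside their range for Arc. Rps6ka5, which encodes MSK1, had 20.1 to 24.0 CPM against 19.3 to 29.5 CPM (log2 -0.18).

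The 110 genes on the lower side differed from the 481 in the size of the difference and in their symbols. Their median log2 difference was -0.69, and 21 differed at least 2-fold and none 4-fold. No gene of the 25 lists was among them, but only 0.599% of all genes were, so that this absence says little. Symbols of predicted or unnamed genes (Gm, RP23 or RP24, AC or Rik names) made up 60.0% of them. This compares with 8.52% of the 481 on the higher side and 18.2% of all genes. The 10 largest differences at a mean of at least 1 CPM were those of Gm28294, Gm10544, Gm43059, Malat1, Erich5, Gm15513, Adcy10, Pkn3, Oaz3 and Fam78a, from log2 -1.32 to -0.67. Malat1, a long RNA kept in the nucleus, lies at chr19:5795690-5802672 and had 801, 643, 866, 638, 516, 796 and 725 CPM in 7, 8, 32A, 17, 33A, 16 and 36A, and 903, 1119 and 1691 CPM in 9, 31B and 35A (log2 -0.80). The gap was narrow for library 9, and the 12 standard-housed libraries spanned 543 to 1064 CPM. Of 7 long RNAs that are kept in the nucleus or lack a protein, listed after Malat1 was seen, Malat1 alone was separated, and the others had log2 differences of -0.44 to 0.36. These counts move in the same direction as the share of reads on no annotated gene given above, whose part was not tested.

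The same measure was then tested in the 12 standard-housed libraries, which the rule had not used. The slope of each gene on log2 Ttr CPM was fitted with genotype as a covariate, so that a slope of 1 means a doubling for each doubling of Ttr. Of 18295 genes tested, 161 had a positive slope (0.88%) and 4 a negative one (0.0219%) at a Benjamini-Hochberg adjusted p of 0.05 or less in edgeR's quasi-likelihood test. Of the 42 choroid genes 38 passed with a positive slope: 15 of 15 secreted, 13 of 13 transport, 7 of 10 epithelial and 3 of 4 transcription factor genes. The 4 that did not pass were Cldn3 (slope 0.22 ± 0.060 SE, edgeR adjusted p = 0.144), Ocln, Msx2 and 1 further epithelial gene, Cldn1 (0.15 ± 0.035, adjusted p = 0.0626). The 5 lowest adjusted p belonged to Slc4a5 (slope 0.91 ± 0.029 SE, edgeR adjusted p = 2.97e-13), F5 (0.68 ± 0.022), Tmem72 (1.06 ± 0.035), Clic6 (0.67 ± 0.024) and Mfrp (0.82 ± 0.031). Slc4a5 had 0.217 to 1.38 CPM in the 9 standard-housed libraries under 300 CPM of Ttr, and 7.13, 14.5 and 22.6 CPM in 11, 12 and 2.

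The slopes rested on few libraries. For 36 of the 42 choroid genes, libraries 11, 12 and 2 lay above each of the other 9. Library 12 also stood apart in the 8 thalamic genes, which summed to 409 CPM there and to 83.4 to 144 CPM in the other standard-housed libraries. All 8 had positive slopes on Ttr (median 0.16) and none was called, and the part of this library's thalamic RNA in the slopes was not tested. The 165 calls became 59 without library 2 and 102 without library 12, of which 27 and 36 were choroid genes, and 17 without both, of which 14 were choroid genes. Over the 9 libraries under 300 CPM of Ttr 3 genes passed, 1 of them of the choroid lists. WT SH libraries alone gave 98 calls with 29 choroid genes, and MSK1 KD SH libraries alone 78 with 30. Within the ependymal list Drc7 (slope 0.33 ± 0.027 SE, edgeR adjusted p = 3.88e-07) and Rsph1 (0.12 ± 0.027, adjusted p = 0.0445) passed of 17 tested. Of 12 meningeal genes Lum, Col1a1, Col1a2 and Col3a1 passed, with slopes of 0.13 to 0.16, and of 9 border macrophage genes H2-Aa passed (0.22 ± 0.050, adjusted p = 0.0368). Calb2, a calcium-binding protein, passed of 9 neurogenesis genes. No gene of the remaining lists passed, the 16 activity-regulated genes among them, all of which had slopes below 0 (median -0.03).

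Genes separated in the enriched libraries were followed into standard housing. Of the 481 on the higher side, 445 were tested there and 118 had a positive call, which is 26.5% of the 445 and 73.3% of the 161. A positive slope, called or not, was fitted for 410 (92.1%), against 48.8% of all genes tested. Of the 110 on the lower side, 105 were tested and none was called in either direction, with a positive slope for 24 (22.9%). Malat1 had a slope of -0.00 ± 0.040 (edgeR adjusted p = 0.984). The 4 genes with negative calls, Creg2, Nrip1, Pcdhga6 and Thap2, had slopes of -0.09 to -0.05 and none of them was separated in the enriched libraries.

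**Figure D4:**
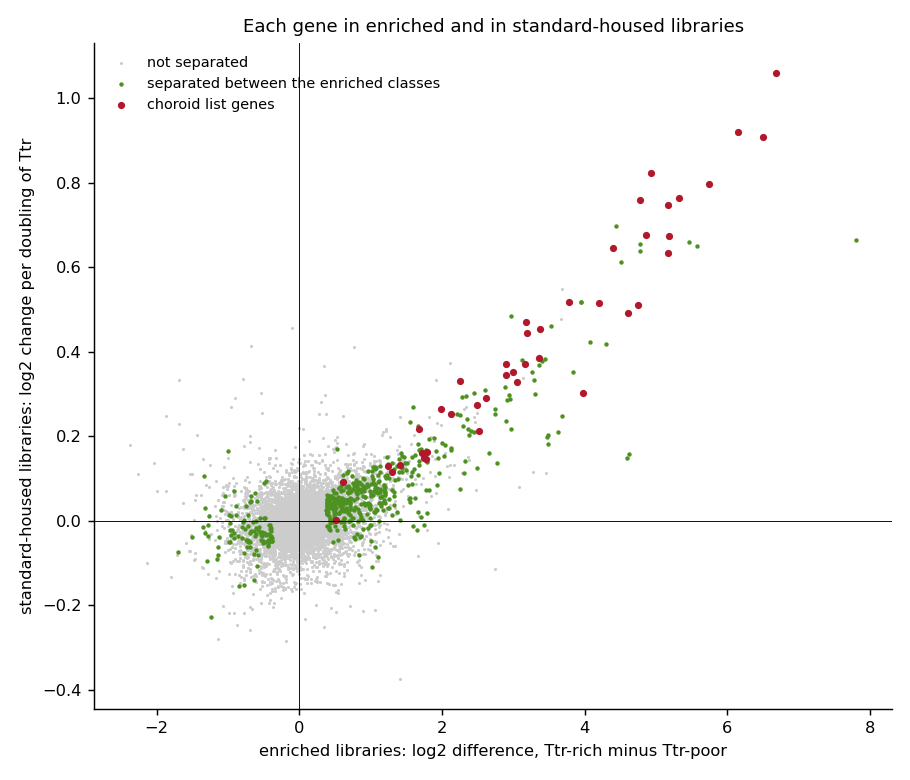
Each gene by its log2 difference between Ttr-rich and Ttr-poor enriched libraries (horizontal) and its log2 change per doubling of Ttr over the 12 standard-housed libraries (vertical). Choroid list genes are red, other separated genes green and all others grey. The choroid genes with the largest differences in enriched libraries, such as Tmem72 (6.68) and Slc4a5 (6.49), have slopes of 1.06 and 0.91. Genes separated on the lower side have a median slope of -0.03, with 24 of 105 above 0.

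Genotype was compared inside the Ttr-rich class, 3 WT EE against 4 MSK1 KD EE libraries. Of 17913 genes tested, 2 were called higher in WT (0.0112%) and none lower (0%), at an edgeR adjusted p of 0.05 or less and a difference of at least 1.3-fold, while 940 had an unadjusted p under 0.05 (611 higher and 329 lower in WT). Amd2, one of the S-adenosylmethionine decarboxylase genes of polyamine synthesis (chr10:35708675-35711892, minus strand), had 3.52, 5.48 and 3.57 CPM in 17, 33A and 16, and 0.00, 0.129, 0.273 and 0.201 CPM in 7, 8, 32A and 36A (log2 4.56 ± 0.37 SE, edgeR adjusted p = 0.000119). The Ttr-poor libraries did not follow genotype for Amd2: 9, an MSK1 KD library, held 6.79 CPM, and 31B and 35A held 2.31 and 5.74 CPM. In standard housing the 6 MSK1 KD libraries held 2.79 to 5.5 CPM, and 1 WT library, 13, held 0.223 CPM. Amd2 has the near-identical copy Amd1, so that its reads are uncertain.

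Hist1h1c, a linker histone (chr13:23738808-23740367), had 49.4, 39.0 and 32.8 CPM in 17, 33A and 16, and 19.9, 18.5, 19.6 and 23.6 CPM in 7, 8, 32A and 36A (log2 0.98 ± 0.13 SE, edgeR adjusted p = 0.0298). All 3 WT libraries were above all 4 MSK1 KD libraries, but the call was lost without library 7, 8, 17 or 32A (adjusted p 0.0518 to 0.339) and with log2 Ttr as a covariate (adjusted p = 0.187). Both calls were lost when all 10 enriched libraries were fitted with the class as a covariate. All 42 choroid genes had a higher fitted level in WT (list medians of log2 0.59 to 0.61), against 9001 of 17913 genes tested. So did 16 of 17 ependymal genes (median 0.56). The activity list went the other way, with 1 of 16 genes higher in WT (median -0.27). In the BDNF, MAPK and MSK1 pathway list it was 3 of 16 (median -0.04). No gene of these lists was called. The study reported Egr1 and Spry4, from the activity and pathway lists, as lower in enriched WT mice. Neither was called in the 7 Ttr-rich libraries, and the reason was not tested. For Ttr, on which these libraries were chosen, no test is given, and 3 of the 4 MSK1 KD libraries were the 3 lowest of the class in Ttr, so that Ttr level was not balanced between the genotypes in these 7 libraries. The next genes, Stra6, a retinol transporter, and the ciliary genes Cdhr3 and Dnaic2, had adjusted p of 0.684 to 0.763 in edgeR.

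The first principal component of the 10 enriched libraries, over the 500 most variable genes with Ttr left out, held 62.4% of the variance and placed all 7 Ttr-rich libraries above the 3 Ttr-poor ones. Scores were -2.84 (7), 0.41 (8), 3.21 (32A), 5.06 (17), 6.80 (33A), 6.11 (16) and 5.46 (36A), and -6.15 (9), -8.54 (31B) and -9.51 (35A). Its largest weights were those of Clic6, Tmem72, F5, Enpp2 and Slc4a5. Without the 42 choroid genes the component held 47.3% of the variance and the classes still did not overlap, with -1.88 for library 7 and -4.51 for library 9. As for Ttr, libraries 7 and 9 were the members nearest to each other across the division.

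**Figure D5:**
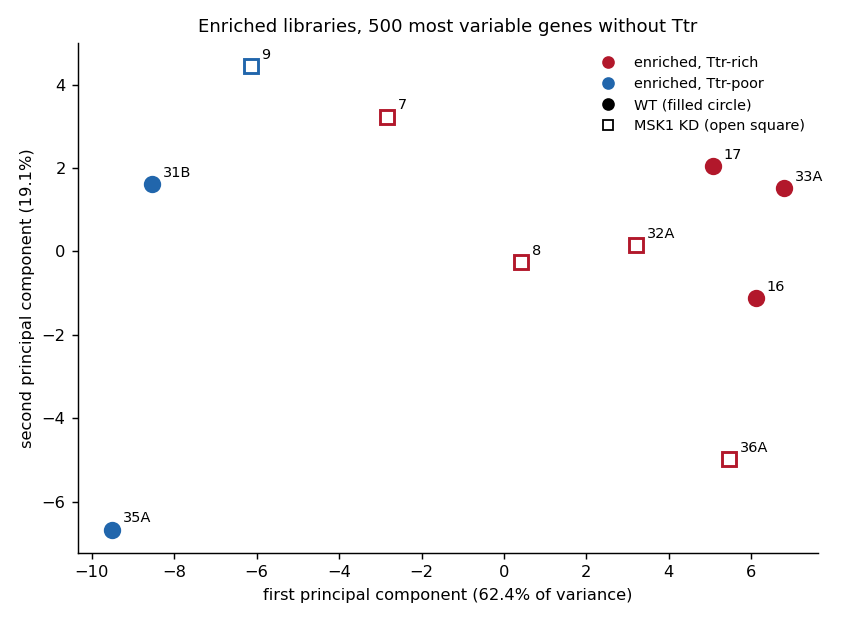
Scores of the 10 enriched libraries on the first 2 principal components (arbitrary units, share of variance on the axes), from 500 genes without Ttr. Filled circles are WT and open squares MSK1 KD. The Ttr-poor libraries 9, 31B and 35A lie at -9.51 to -6.15 on the first component and the Ttr-rich libraries at -2.84 to 6.80.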

How the data were processed

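Hippocampal poly-A RNA was sequenced in 24 libraries. The deposited files hold raw counts per gene for each library, from which CPM (counts per 1000000 gene counts) were computed here: the authors used Skewer to trim paired reads, STAR 2.5 to map them (GRCm38 build) and HTSeq to tally unique hits with strand ignored, so that overlapping and antisense genes cannot be separated. Counter summary lines (5 a file) were kept out of library sizes, and of these only the share of reads on no annotated gene is given. No 2 of the 276 pairs of libraries were identical.

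Genes were filtered with filterByExpr and scaled by TMM over the 22 libraries other than 33B and 34B, in edgeR 4.0.16 under R 4.3.3. The difference between classes was fitted by edgeR's quasi-likelihood model with genotype as a covariate and is given with no p. A gene was called separated where the TMM-scaled CPM of the classes did not overlap and the log2 difference was at least 0.38. In standard housing the quasi-likelihood test of the slope on log2 Ttr CPM had genotype as a covariate, with Ttr dropped. Genotype was tested within the 7 Ttr-rich libraries. P-values were adjusted by Benjamini-Hochberg over all genes tested, and with libraries not stated to be separate animals they measure the spread between libraries only. Principal components used rlog values (DESeq2 1.42.0). The steps were tested on simulated data. Alternatives were DESeq2, other scalings and filters, and leaving out each library.

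The members, lists and tests were chosen with earlier results of these data known. Genes named are Ttr, genes of the lists, the 10 largest differences in each direction among separated genes with a mean of at least 1 CPM, and the 5 lowest adjusted p of each test. The list of nuclear RNAs, the division by letter in the library code and the fits within subsets of standard-housed libraries other than the 10 kept by the study were added after the data were seen.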

Additional observations from a re-analysis of the deposited data

Results flagged for a closer look

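In 59 groups of 4 to 10 libraries, the highest or lowest library was compared with its nearest neighbour by Dixon's ratio, which picks about 1 in 20 groups by chance. It picked 5, all in the Ttr-rich class and 4 of them in library 7. Library 7 held 0.773 CPM of Tmprss11a, with the next library at 1.91 CPM, and 0.232 CPM of Gm43059, with the next at 0.873 CPM. Its mitochondrial genes summed to 44750 CPM, with the next library at 37303 CPM. Its share of counts on mitochondrial genes, largely the same measure, was 5.10%, with the next at 4.24%. Library 17 held 128 CPM of blood genes, with the next library at 86.4 CPM.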

How the results depend on the processing

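The 481 genes separated on the higher side became 295 with at least 10 counts in each library, 1285 among lettered and 2524 among unlettered libraries, and 483 to 790 with 1 library left out. The 110 on the lower side became 193 with no filter, 45 with at least 10 counts, 378 with no fold threshold, 40 with 33B added, 572 and 2311 by letter, and 127 to 346 with 1 library left out. Fewer libraries overlap less often by construction. The 165 standard-housed calls became 251 in DESeq2, 17 in the 10 libraries the study kept, 3 in the 9 with Ttr under 300 CPM, 98 in WT SH, 78 in MSK1 KD SH, and 59 (without 2) to 216 (without 6). In the 9 libraries the slopes of Cab39l (-0.013), Slc4a2 (-0.053) and Slc37a2 (-0.025) turned negative. The 2 genotype calls became 6 in DESeq2, 62 with no filter, 1 with Ttr as a covariate, none (0) in edgeR over all 10 libraries with class as a covariate, where Amd2 had an adjusted p of 0.998, and 1 to 5 with 1 library left out (5 without 33A). The first component held 46.6% with log2 CPM, 57.3% with 1000 genes, 47.3% without choroid genes, and 57.2% to 65.2% with 1 library left out. Apart from the fewer libraries or genes, the cause was not tested. No paired analysis was possible because each replicate code belongs to 1 library and none is shared between groups. With 3 Ttr-poor libraries, of which 9 is the shallowest, genes near the floor of 3 counts were not resolved.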

Other observations

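Library 9, the Ttr-poor library with the highest Ttr, stood apart in some mitochondrial genes and not in others. mt-Co2 had 52.5 CPM there (472 counts), against at most 9.97 CPM in another enriched library and 15.4 CPM in standard housing. mt-Co3 had 49.5 CPM (445 counts) against at most 8.65 and 14.2 CPM, and mt-Atp6 had 39.7 CPM (357 counts) against at most 10.3 and 12.9 CPM. mt-Co1, mt-Nd1 and mt-Cytb, at 14493, 4554 and 6586 CPM, did not exceed the other libraries. Library 33B, left out of the classes, held 885 CPM of the secreted choroid genes, 168 CPM of the transport genes and 38.6 CPM of the epithelial genes in CPM without TMM scaling.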
